A study of Mus musculus with 7 samples.

Results

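The miRNAs described here are those whose difference between virtual memory (VM) and true naive (TN) CD8+ T cells depended on whether the cells came from neonatal or adult mice. They were chosen by the interaction of subset and age, which is the VM minus TN difference in neonatal cells minus the VM minus TN difference in adult cells. Of 1978 mature miRNAs in the table, 878 had a count, 288 were tested and 23 passed the interaction test. A second set, the 112 miRNAs that differed between adult VM and adult TN cells, was used to ask where the neonatal TN library lay between those 2 adult groups.

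All cells were splenic CD8+ T cells of gBT-I mice, in which T cells carry one transgenic receptor, so every group shares that transgene. VM cells were sorted as CD44hi CD122hi and TN cells as CD44lo CD122lo, at over 95% purity. There were 2 adult TN, 2 adult VM and 2 neonatal VM libraries and 1 neonatal TN library. The labels give no age in days and nothing on whether replicates are separate animals, so p-values here reflect only the spread among these libraries, which could be technical. The series addresses miRNA programmes in functionally different naive T cell subsets.

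MiRNAs are short RNAs that lower the output of messenger RNAs by pairing through their seed, bases 2 to 8 from the 5′ end. VM cells bear memory markers without having met foreign antigen, and in mice T cells made early in life are known to enter the VM pool more readily than those made in adulthood. Several of the miRNAs below are known in T cells, among them miR-146a, which restrains NF-kB signalling, miR-182, which is induced by interleukin 2, miR-150, which is abundant in resting lymphocytes and targets Myb, and let-7, whose maturation is blocked by LIN28.

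Some of the 23 share a seed or a hairpin locus with other tested miRNAs. Sequences are shown because such members did not all behave alike. The sequences are those of RefSeq for GRCm38.p6, which held 16 of the 23 miRNAs, and the capitals mark the seed.
miR-30a-5p: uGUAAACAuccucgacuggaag
miR-30e-5p: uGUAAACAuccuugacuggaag
miR-30c-5p: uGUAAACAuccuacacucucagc
miR-182-5p: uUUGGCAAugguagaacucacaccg
miR-183-5p: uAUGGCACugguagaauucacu
miR-146a-5p: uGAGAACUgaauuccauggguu
miR-146b-5p: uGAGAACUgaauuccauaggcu
let-7e-5p: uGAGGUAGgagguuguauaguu
let-7g-5p: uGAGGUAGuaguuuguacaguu
miR-98-5p: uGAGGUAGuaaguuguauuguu
miR-125a-5p: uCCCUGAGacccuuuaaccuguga
miR-301a-3p: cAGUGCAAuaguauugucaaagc

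Library totals ran from 1577031 to 3278451 counts. Levels are given as CPM, the counts divided by the scaled library total after TMM scaling. Over the 288 tested miRNAs, the log2 difference between replicates had an SD of 0.45 in adult TN, 0.71 in adult VM and 0.41 in neonatal VM, and over 2-fold differences were found at 10, 30 and 7 miRNAs. The neonatal TN library has no replicate, and every test that uses it assumes that it varies like the other libraries. Interaction values had a median SE of 0.45 on the log2 scale, against 0.29 for the adult and 0.36 for the neonatal subset difference. Each SE in this report was back-calculated as the size of the log2 value divided by the square root of the F statistic of its edgeR test. Near 0 it can be far off, as for miR-669l-5p (interaction 0.04, SE 4.89, against 0.56 and 0.90 for its adult and neonatal differences).

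More miRNAs passed the subset test in adult than in neonatal cells. In adult cells 112 of 288 miRNAs passed (38.9%; 67 higher in VM, 23.3%, and 45 lower, 15.6%), and in neonatal cells 28 passed (9.72%; 9 higher, 3.12%, and 19 lower, 6.6%). The test throughout was the quasi-likelihood test of edgeR, with p-values adjusted by Benjamini-Hochberg and a threshold of 0.05. The 2 counts are not a test of a difference between ages, since the neonatal comparison has 1 library fewer and a larger SE. The interaction is that test, and 23 of 288 passed it (7.99%), 5 with a higher VM minus TN difference in neonatal cells (1.74%) and 18 with a lower one (6.25%). At an unadjusted p under 0.05 there were 70.

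Both the count and its direction depended on settings and libraries. With upper quartile scaling, which moved the median of all miRNAs by 0.40, 18 were higher and 12 lower, and with RLE scaling 8 were higher and 14 lower. The interaction count was 6 without adult TN replicate 2 and 9 without adult TN replicate 1, 13 without neonatal VM replicate 1 and 15 without neonatal VM replicate 2, but 86 without adult VM replicate 1 and 59 without adult VM replicate 2. The adult count was 23 without adult TN replicate 2 and 51 without adult TN replicate 1. The neonatal count was 77 without adult VM replicate 2, 56 without adult VM replicate 1, 16 without adult TN replicate 2 and 17 without neonatal VM replicate 2. Of the 23, miR-151-3p, miR-30a-5p, miR-182-5p, miR-146b-5p, miR-486a-5p and miR-486b-5p passed with each of these 6 libraries left out, and the other 17 did not pass in at least 1 of those fits.

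Among the 23, 17 passed the adult subset test and not the neonatal one, 4 passed at both ages in opposite directions, 1 passed in neonatal cells only and 1 passed at neither age. None passed at both ages in the same direction. Over all 288 tested, which include these 23, the counts were 90 in adult cells only, 4 at both ages in opposite directions, 6 in neonatal cells only, 170 at neither age and 18 at both ages in the same direction. The interaction is built from the same 2 differences, so nothing is read from this tally. The median size of the log2 subset difference over all tested was 0.65 in adult and 0.41 in neonatal cells. Adult TN had the lowest mean of the 4 groups for 12 of the 23, and adult VM the highest for 12. A low adult TN or a high adult VM lowers the interaction by its definition, so nothing is read from these counts either. Across the 288 miRNAs, which are not independent replicates, the adult and neonatal differences share no library and had a Pearson r of 0.54 and a Spearman rho of 0.48. The plot of the subset difference at each age shows these 23 away from the diagonal of equal differences, which follows from how they were chosen.

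**Figure D1:**
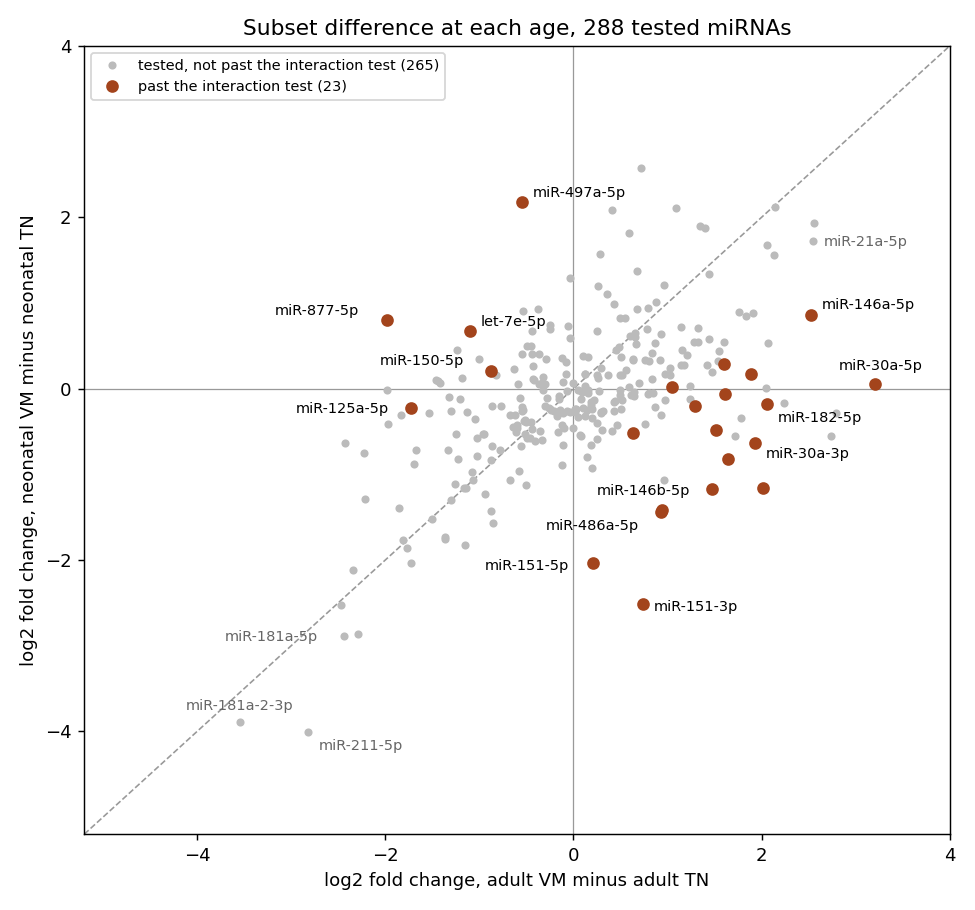
Each point is 1 of 288 tested miRNAs, with the log2 fold change of VM over TN in adult cells on the x axis and in neonatal cells on the y axis. The dashed line marks equal differences. The 23 past the interaction test (dark) lie off it by their selection, 18 below and 5 above. MiR-181a-5p, miR-21a-5p and miR-211-5p differed in the same direction at both ages.

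Both arms of miR-151, which is made from an intron of Ptk2, the gene of focal adhesion kinase, were low in neonatal VM cells. MiR-151-3p stood at 1513 and 1924 CPM in adult TN libraries, 2701 and 3035 in adult VM, 2304.5 in neonatal TN, and 435 and 375 in neonatal VM. Both neonatal VM libraries lay below every other library. It was higher in VM than in TN in adult cells (log2 fold change 0.74, SE 0.20) and lower in VM in neonatal cells (-2.51, SE 0.24), an interaction of -3.25 (SE 0.31, edgeR adjusted p = 6.48e-05). MiR-151-5p stood at 1079.8 and 1092 CPM in adult TN libraries, 1465 and 1043 in adult VM, 769 in neonatal TN, and 213 and 163 in neonatal VM. Its adult subset difference did not pass (0.21, SE 0.22), its neonatal difference did (-2.03, SE 0.26), and the interaction was -2.24 (SE 0.34, edgeR adjusted p = 0.00108; 0.0661 without adult TN replicate 2). Mir151 lies on chromosome 15 at 73254815 to 73254882 (GRCm38, minus strand).

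MiR-30a was the miRNA with the largest adult increase in VM cells among those with a mean of at least 50 CPM, and both its arms passed the interaction test. MiR-30a-5p stood at 1451 and 1572 CPM in adult TN libraries, 11040.1 and 16902 in adult VM, 3646 in neonatal TN, and 3641 and 3906 in neonatal VM. The 3 neonatal libraries lay close together, above adult TN and below adult VM. The subset log2 difference was 3.21 (SE 0.23) in adult and 0.05 (SE 0.26) in neonatal cells, an interaction of -3.16 (SE 0.33, edgeR adjusted p = 8.57e-05). The opposite arm, miR-30a-3p, stood at 101.5 and 109 CPM in adult TN libraries, 284 and 516 in adult VM, 286 in neonatal TN, and 188 and 179 in neonatal VM. The neonatal TN library thus reached the lower adult VM library, and the interaction was -2.56 (SE 0.41, edgeR adjusted p = 0.00177). That call was lost without adult TN replicate 1 (0.0794) or without adult TN replicate 2 (0.104). Mir30a lies on chromosome 1 at 23272269 to 23272339 (GRCm38, plus strand), with no host gene in GENCODE.

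The same seed did not carry the same call. MiR-30e-5p, with the seed of miR-30a-5p as printed above, had an interaction of -0.90 (SE 0.29), which did not pass (edgeR adjusted p = 0.0798). Its sign was that of miR-30a-5p, and its adult subset difference was 1.17 (SE 0.19). The printed sequences of miR-30a-5p and miR-30e-5p differ at a single base, so they can share reads and the split between them is uncertain. MiR-30e-5p was also higher in adult VM than in adult TN. It stood at 5294 and 5023 CPM in adult TN libraries, 10131 and 13098 in adult VM, 10053 in neonatal TN, and 11342 and 12949 in neonatal VM, so the neonatal TN library lay near the lower adult VM library. MiR-30c-5p had an interaction of 0.64 (SE 0.29), which did not pass either. Of 11 tested arms of the miR-30 family, 2 were lower and none higher by the interaction test, both from miR-30a, against 6.25% lower and 1.74% higher over all tested. The median of the 11 was -0.65 against -0.14 over all tested.

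MiR-182-5p and miR-183-5p, made from neighbouring hairpins with miR-96, passed the subset test in adult cells and not in neonatal cells. MiR-182-5p, which is induced by interleukin 2 and targets Foxo1, stood at 1004 and 1197 CPM in adult TN libraries, 4179.6 and 4969 in adult VM, 4007 in neonatal TN, and 3459.8 and 3600.1 in neonatal VM. Adult TN was the one group that stood apart, and the neonatal TN library lay above both neonatal VM libraries. Its subset log2 difference was 2.06 (SE 0.20) in adult and -0.18 (SE 0.23) in neonatal cells, an interaction of -2.24 (SE 0.30, edgeR adjusted p = 6.31e-04). MiR-183-5p stood at 61.5 and 58.2 CPM in adult TN libraries, 166 and 176 in adult VM, 257 in neonatal TN, and 179 and 189.9 in neonatal VM. The neonatal TN library was the highest of the 7, and the interaction was -1.99 (SE 0.33, edgeR adjusted p = 0.00177; 0.0661 without adult TN replicate 2). MiR-96-5p stood at 2.70 to 11.7 CPM and its interaction of -1.06 (SE 0.77) did not pass. On GRCm38 Mir182 lies on chromosome 6 at 30165918 to 30165992 and Mir183 at 30169668 to 30169737, both on the minus strand.

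MiR-146a-5p and miR-146b-5p, which share a seed but lie on different chromosomes and are both known to target Traf6 and Irak1, were both higher in adult VM than in adult TN, and parted in neonatal cells. MiR-146a-5p stood at 371 and 471 CPM in adult TN libraries, 2817 and 2031 in adult VM, 437.5 in neonatal TN, and 749.6 and 840.3 in neonatal VM. The neonatal TN library lay between the adult TN libraries, and neonatal VM between adult TN and adult VM. The subset log2 difference was 2.52 (SE 0.23) in adult cells and 0.86 (SE 0.27) in neonatal cells, where it did not pass (edgeR adjusted p = 0.0713), and the interaction was -1.66 (SE 0.34, edgeR adjusted p = 0.00976). That call was lost without adult TN replicate 1 (0.137), adult TN replicate 2 (0.104) or neonatal VM replicate 1 (0.0661). MiR-146b-5p stood at 25.9 and 27.4 CPM in adult TN libraries, 84.5 and 64.3 in adult VM, 262 in neonatal TN, and 125 and 108 in neonatal VM. The neonatal TN library was the highest of the 7. The subset difference was 1.48 (SE 0.27) in adult and -1.18 (SE 0.29) in neonatal cells, both past the test, and the interaction was -2.65 (SE 0.39, edgeR adjusted p = 0.00108). Mir146b lies in an intron of Mfsd13a on chromosome 19 at 46342762 to 46342870, and Mir146 on chromosome 11 at 43374397 to 43374461 (GRCm38).

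**Figure D2:**
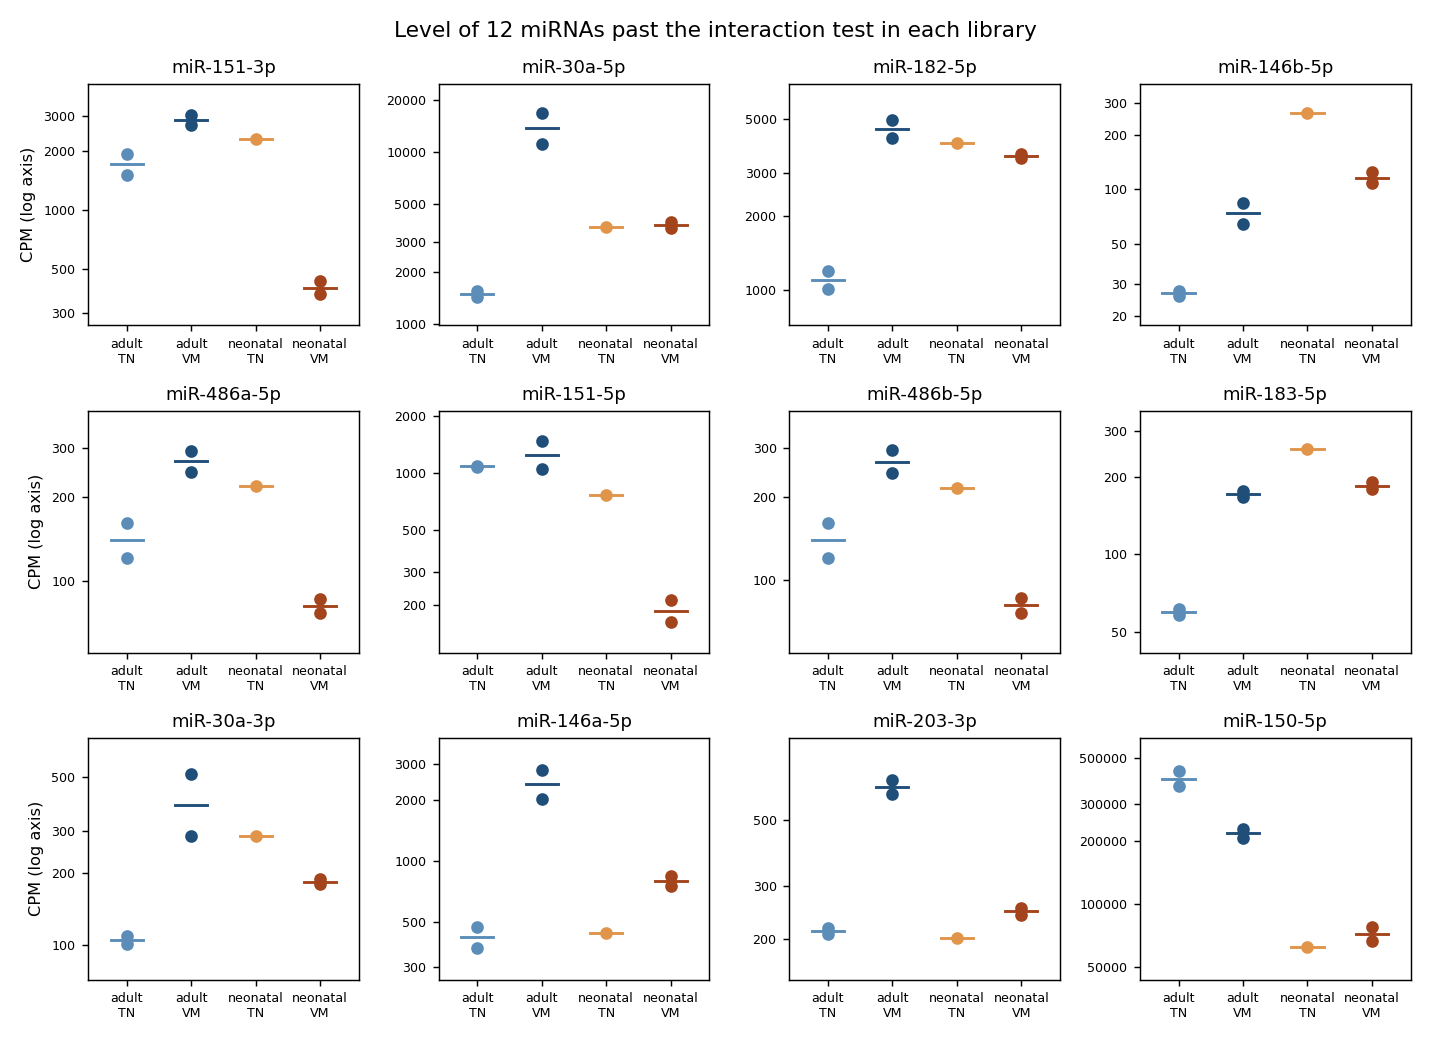
TMM-scaled CPM on a log axis in each library (points) with the geometric mean of each group (line), for the 12 miRNAs with the smallest interaction p among those named by the rule. Adult TN is lowest for miR-30a-5p, miR-182-5p and miR-146b-5p, and neonatal VM is lowest for both arms of miR-151 and for miR-486a-5p and miR-486b-5p.

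MiR-203-3p, known from epithelia, was high in adult VM alone, at 611.5 and 679 CPM, against 208 and 217 in adult TN, 202 in neonatal TN, and 254 and 240.4 in neonatal VM. The adult VM libraries did not overlap any other group. Its interaction was -1.31 (SE 0.30, edgeR adjusted p = 0.02), and was not past the test with upper quartile scaling (0.0714) or without either adult TN (0.137 and 0.167) or either neonatal VM library (0.0998 and 0.118). Of the 6 tested members of the miR-200 family and miR-203, it was the 1 that passed, against 7.99% over all tested. All 6 had interactions below 0, with a median of -0.68 against -0.14 over all tested. In adult cells 5 of the 6 were higher in VM, against 23.3% over all tested.

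MiR-150-5p, the most abundant of the 23, was lower in VM than in TN in adult cells, and low in both neonatal subsets. It stood at 365659.5 and 435180 CPM in adult TN libraries, 229398 and 207898 in adult VM, 62258 in neonatal TN, and 77562 and 66475 in neonatal VM. The 3 neonatal libraries lay below all adult ones, with the neonatal TN library lowest. The subset log2 difference was -0.87 (SE 0.16) in adult and 0.21 (SE 0.20) in neonatal cells, an interaction of 1.08 (SE 0.26, edgeR adjusted p = 0.0293), lost without adult TN replicate 2 (0.108) or neonatal VM replicate 1 (0.099). Mir150 lies on chromosome 7 at 45121757 to 45121821 (GRCm38). Of 9 tested miRNAs of a list of resting T cells, 3 were higher and 2 lower in adult VM, none passed in neonatal cells, and miR-150-5p was the 1 past the interaction test. Over all tested the shares were 23.3% and 15.6% in adult cells, 9.72% in neonatal cells and 7.99% for the interaction, so these counts lie near the background.

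MiR-125a-5p and let-7e-5p, whose hairpins lie within Spaca6 on chromosome 17 beside miR-99b, had interactions of the opposite sign to most of the 23. MiR-125a-5p stood at 196 and 232 CPM in adult TN libraries, 67.6 and 62.2 in adult VM, 101 in neonatal TN, and 78.6 and 94.8 in neonatal VM. The subset difference was -1.72 (SE 0.24) in adult cells and -0.22 (SE 0.28) in neonatal cells, and the interaction was 1.50 (SE 0.38, edgeR adjusted p = 0.0323). Let-7e-5p stood at 48.0 and 42.8 CPM in adult TN libraries, 20.5 and 21.8 in adult VM, 19.6 in neonatal TN, and 31.6 and 30.8 in neonatal VM. So for let-7e-5p the neonatal TN library was the lowest of the 7, just below the adult VM pair. Its interaction was 1.77 (SE 0.48, edgeR adjusted p = 0.0438), and miR-99b-5p, the first miRNA short of the threshold, had 1.56 (SE 0.44, edgeR adjusted p = 0.0518). Both called members were lost without adult TN replicate 1 (0.12 for miR-125a-5p and 0.14 for let-7e-5p), adult TN replicate 2 (0.155 and 0.108) or neonatal VM replicate 2 (0.063 and 0.0726), and let-7e-5p also without neonatal VM replicate 1 (0.09). On GRCm38 Mirlet7e lies at 17830352 to 17830444 and Mir125a at 17830812 to 17830879.

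Within the let-7 seed the direction differed by member. MiR-98-5p, in an intron of Huwe1, stood at 297 and 300.03 CPM in adult TN libraries, 624 and 1194 in adult VM, 685.5 in neonatal TN, and 680.4 and 637 in neonatal VM. All 3 neonatal libraries lay within the range of the 2 adult VM libraries, which were nearly 2-fold apart, and the interaction was -1.66 (SE 0.43, edgeR adjusted p = 0.0438). Let-7g-5p stood at 8512 and 8872 CPM in adult TN libraries, 15886 and 20169 in adult VM, 5779 in neonatal TN, and 5737 and 6005 in neonatal VM. Here the neonatal libraries lay below both adult TN libraries, with an interaction of -1.03 (SE 0.28, edgeR adjusted p = 0.0438). Each of these calls was lost without either adult TN or either neonatal VM library, with edgeR adjusted p from 0.0617 to 0.31 for miR-98-5p and from 0.222 to 0.354 for let-7g-5p. They were also lost with RLE, library total and upper quartile scaling (0.086, 0.0661 and 0.0884 for miR-98-5p, and 0.0752, 0.0661 and 0.168 for let-7g-5p). With the 100 CPM filter, non-robust dispersions and the largest precursor value they were at 0.0666, 0.0608 and 0.0633 for miR-98-5p and at 0.0602, 0.0755 and 0.0579 for let-7g-5p, and miR-98-5p was at 0.0575 with limma voom. Of the 9 tested miRNAs that hold the seed GAGGUAG, these 2 were lower and let-7e-5p higher by the interaction test, against 6.25% and 1.74% over all tested, and the median of the 9 was -0.66. Near-identical let-7 members can share reads, so the split between them is uncertain.

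MiR-301a-3p and miR-301b-3p, 2 relatives of miR-130, were far higher in neonatal than in adult cells, and differed between subsets in adult cells. MiR-301a-3p stood at 119 and 108 CPM in adult TN libraries, 291 and 547 in adult VM, 2369.9 in neonatal TN, and 2481 and 2837 in neonatal VM. MiR-301b-3p stood at 10.8 and 15.8 CPM in adult TN libraries, 29.8 and 36.0 in adult VM, 466 in neonatal TN, and 389 and 423 in neonatal VM. For both, every neonatal library lay above every adult library and adult VM above adult TN. The interactions were -1.72 (SE 0.43, edgeR adjusted p = 0.0406) and -1.49 (SE 0.37, edgeR adjusted p = 0.0323). MiR-301a-3p was not past the test without either adult TN library (0.191 and 0.318) or neonatal VM replicate 1 (0.0673), nor miR-301b-3p without either adult TN (0.199 and 0.108) or either neonatal VM library (0.125 and 0.063). With RLE, library total and upper quartile scaling miR-301a-3p had 0.0752, 0.0661 and 0.083, and miR-301b-3p had 0.0846 with upper quartile scaling. MiR-301a-3p also missed the threshold with the 100 CPM filter (0.0602), non-robust dispersions (0.0553) and the largest precursor value (0.0598), and miR-301b-3p with limma voom (0.0575) and non-robust dispersions (0.0533). MiR-130b-3p, beside miR-301b on chromosome 16, was also higher in neonatal TN than in adult TN (by 1.96 on the log2 scale, SE 0.26, edgeR adjusted p = 1.04e-04), but its interaction was -0.35 (SE 0.35) and did not pass. Mir301 lies in an intron of Ska2 (chromosome 11, 87113004 to 87113089) and Mir301b in an intron of 2610318N02Rik (chromosome 16, 17124400 to 17124496).

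MiR-192-5p stood at 3253 and 3409 CPM in adult TN libraries, 4474 and 5898 in adult VM, 6839 in neonatal TN, and 4627 and 4934 in neonatal VM. Neonatal VM lay within the adult VM range and the neonatal TN library above all others, with an interaction of -1.16 (SE 0.30, edgeR adjusted p = 0.0353). It was not past the test with RLE, library total or upper quartile scaling (0.0648, 0.0534 and 0.115), with the 100 CPM filter (0.0555), with non-robust dispersions (0.0608), without either adult TN (0.211 and 0.289) or without either neonatal VM library (0.285 and 0.147). Its neighbour miR-194-5p had an interaction of -0.06 (SE 0.31).

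MiR-486a-5p and miR-486b-5p, known from red cell precursors, have near-identical values and can share reads, so they count as 1 observation. MiR-486a-5p stood at 121 and 162 CPM in adult TN libraries, 246 and 294 in adult VM, 220.0 in neonatal TN, and 86.0 and 76.8 in neonatal VM. Neonatal VM lay below all other libraries, and the interactions of the 2 were -2.37 (SE 0.35) and -2.36 (SE 0.36, edgeR adjusted p = 0.00108 for each). Both are themselves erythroid markers and make up nearly all of the sum of the 4 listed, which was 243 and 325 CPM in adult TN libraries, 493 and 592 in adult VM, 446 in neonatal TN, and 178 and 156 in neonatal VM. The defining erythroid markers were near 0, with miR-451a at 2.14 to 9.65 CPM and miR-144-3p at 0 in 4 libraries and at most 1.21 CPM. MiR-451a was highest in neonatal TN and did not follow miR-486. In sorted bulk cells, fewer cells of a type and less RNA per cell cannot be told apart.

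Of the remaining 4 miRNAs, named after their values were seen because their mean was under 50 CPM, miR-143-3p is a stromal marker. It stood at 4.32 and 8.99 CPM in adult TN libraries, 16.5 and 25.9 in adult VM, 67.2 in neonatal TN, and 31.6 and 43.9 in neonatal VM (interaction -2.46, SE 0.60, edgeR adjusted p = 0.0296). The sum of the 9 stromal and muscle markers, miR-143-3p included, was 15.6 and 30.4 CPM in adult TN libraries, 27.4 and 50.1 in adult VM, 98.3 in neonatal TN, and 71.2 and 60.1 in neonatal VM. Without miR-143-3p the sum was 11.3 and 21.4 CPM in adult TN libraries, 10.9 and 24.2 in adult VM, 31.1 in neonatal TN, and 39.6 and 16.2 in neonatal VM, so the 2 adult groups overlapped and neonatal TN lay within the neonatal VM range. Of these markers, miR-1a-3p, miR-206-3p and miR-214-3p were at 0 in all 7 libraries, and miR-145a-5p, made with miR-143, in 6. The 7 myeloid and progenitor markers summed to 77.2 and 133 CPM in adult TN libraries, 165 and 209 in adult VM, 88.7 in neonatal TN, and 143 and 109 in neonatal VM. These markers did not move together. MiR-10a-5p stood at 66.9 and 122 CPM in adult TN libraries and 136 and 166 in adult VM. In neonatal cells it stood at 29.6 in TN and 85.0 and 29.5 in VM. MiR-126a-5p stood at 3.24 to 22.5 CPM in adult libraries and 38.6 to 60.6 in neonatal ones. MiR-223-3p stood at 0.99 to 15.6 CPM, highest in adult VM. The part of other cell types in these results was not tested.

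MiR-7a-5p stood at 11.3 and 11.6 CPM in adult TN libraries, 26.6 and 66.0 in adult VM, 29.9 in neonatal TN, and 12.4 and 14.1 in neonatal VM, so neonatal TN lay within the adult VM range and neonatal VM just above adult TN (interaction -3.18, SE 0.66, edgeR adjusted p = 0.0123). MiR-877-5p, from an intron of Abcf1, stood at 19.4 and 25.7 CPM in adult TN libraries, 8.86 and 2.77 in adult VM, 54.8 in neonatal TN, and 104 and 86.7 in neonatal VM, with both neonatal groups above both adult groups (interaction 2.78, SE 0.66, edgeR adjusted p = 0.0296). MiR-497a-5p stood at 33.5 and 20.1 CPM in adult TN libraries, 14.9 and 21.4 in adult VM, 2.49 in neonatal TN, and 9.39 and 13.1 in neonatal VM. The adult groups overlapped for miR-497a-5p, the neonatal TN library was lowest, and the interaction was 2.72 (SE 0.75, edgeR adjusted p = 0.0447). Its neonatal TN value was only 8 counts, against 19 and 50 in neonatal VM, and its subset difference passed at neither age. These 3 and miR-143-3p were not past the test without adult TN replicate 1 (0.137 for miR-7a-5p and miR-877-5p, 0.191 for miR-143-3p, 0.185 for miR-497a-5p) or adult TN replicate 2 (0.182, 0.182, 0.108 and 0.108). Nor was miR-143-3p without neonatal VM replicate 1 (0.0673) or miR-497a-5p without neonatal VM replicate 2 (0.0902), and miR-497a-5p had 0.0531 with library totals, 0.0508 with DESeq2, 0.0896 with limma voom and 0.0608 with non-robust dispersions.

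Among the 23, 4 pairs were found that come from a single hairpin or from hairpins within 10 kb on the same strand. They were the miR-151 arms, the miR-30a arms, miR-182 with miR-183, and let-7e with miR-125a. Within each of these 4 pairs the interactions had the same sign. No coordinates were at hand for miR-486a and miR-486b, so they were not checked as a pair. A further 13 tested partners of the 23 at such loci did not pass, and all 13 had the sign of their called partner, from miR-194-5p (-0.06) and let-7g-3p (-0.10) to miR-195a-5p (1.68, beside miR-497a-5p). Over all tested, 170 of 288 interactions were below 0 and the median was -0.14, so a negative sign was common. Arms and neighbours come from the same libraries and are not replicates.

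**Figure D3:**
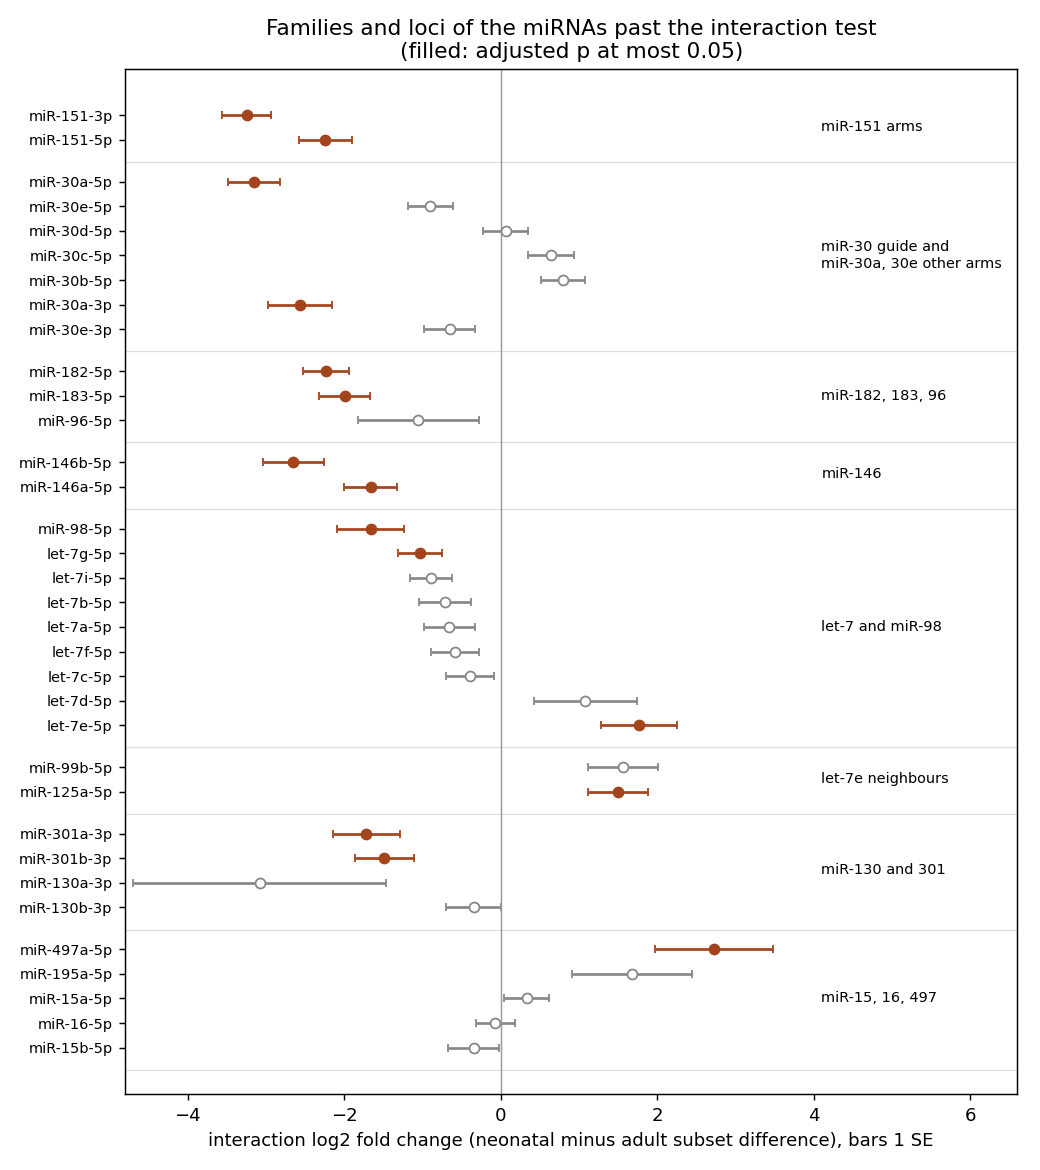
Interaction log2 fold change (neonatal minus adult subset difference, with bars of 1 SE) for members of the families and loci of the called miRNAs; filled points have an adjusted p of at most 0.05. Arms and neighbours of a called miRNA lie on its side of 0, whereas the let-7 and miR-98 group holds both miR-98-5p at -1.66 and let-7e-5p at 1.77.

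Of the 12 tested miRNAs in a list of T cell activation, 4 were lower by the interaction test (miR-182-5p, miR-183-5p, miR-146a-5p and miR-146b-5p) and none higher, with a median of -0.96 against -0.14 over all tested. In adult cells 9 of these 12 were higher and 1 lower in VM, and in neonatal cells 2 were higher and 2 lower. Over all tested, 6.25% were lower by the interaction test, 23.3% higher and 15.6% lower in adult VM, and 3.12% higher and 6.6% lower in neonatal VM. The lists were drawn up with earlier results of these data known, so nothing is read from these counts. MiR-182-5p and miR-183-5p come from neighbouring hairpins, and miR-146a-5p and miR-146b-5p share a seed, so the 4 are not unrelated members. MiR-155-5p, which is needed for effector CD8+ responses, stood at 380 and 367 CPM in adult TN libraries, 906.5 and 1117 in adult VM, 206 in neonatal TN, and 322 and 294 in neonatal VM. It was higher in adult VM (1.44, SE 0.20, edgeR adjusted p = 2.52e-04), the neonatal libraries lay below all adult ones, and its interaction of -0.86 (SE 0.31) did not pass (edgeR adjusted p = 0.111). For the other lists the count past the interaction test, to be read against 7.99% over all tested, was 0 of 7 for the miR-181 family, 0 of 5 for miR-29, 0 of 22 for the miR-17 to miR-92a and related clusters, 0 of 8 for miR-23, miR-27 and miR-24, 0 of 5 for the miR-322 and miR-351 cluster and 0 of 21 for the families in the Sfmbt2 intron. It was 1 of 11 for miR-15 and miR-16, with miR-497a-5p counted there, 2 of 6 for miR-130 and miR-301, 2 of 3 for the miR-183 cluster, 1 of 2 for the miR-99 and miR-125 families and 3 of 19 for let-7 and miR-98. None of 3 tested myeloid markers passed. Of the erythroid markers miR-486a-5p and miR-486b-5p were tested and passed, as 1 observation, and 1 of 2 tested stromal markers passed.

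Some of the largest adult subset differences were present at both ages. MiR-181a-5p, which raises the sensitivity of T cell receptor signalling and is high in thymocytes, stood at 73769 and 104380 CPM in adult TN libraries, 16417 and 16420 in adult VM, 171813 in neonatal TN, and 25886 and 20771 in neonatal VM. TN lay above VM at both ages, and the neonatal TN library above both adult TN libraries. The subset difference was -2.44 (SE 0.20) in adult and -2.88 (SE 0.23) in neonatal cells, and the interaction of -0.44 (SE 0.30) did not pass (edgeR adjusted p = 0.419). MiR-21a-5p, which is induced when T cells are activated, stood at 16348 and 14805 CPM in adult TN libraries, 71518 and 110308 in adult VM, 20011 in neonatal TN, and 62512 and 69783 in neonatal VM. Both VM groups lay above both TN groups, with differences of 2.55 (SE 0.22) and 1.72 (SE 0.27) and an interaction of -0.82 (SE 0.32) that did not pass (edgeR adjusted p = 0.141). MiR-211-5p stood at 943 and 1226 CPM in adult TN libraries, 193 and 114 in adult VM, 1199 in neonatal TN, and 85.0 and 65.1 in neonatal VM, with an interaction of -1.18 (SE 0.43, edgeR adjusted p = 0.118). An interaction that misses the threshold does not show that the ages are alike.

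The position of the neonatal TN library was measured for the 112 miRNAs past the adult subset test as its distance from the adult TN mean divided by the distance from adult TN to adult VM, on log2(CPM + 1). A value of 0 is the adult TN level and 1 the adult VM level. This measure uses the adult TN libraries for both distances, and it is given as a description. The neonatal TN library lay between the 2 adult means for 48 of the 112 (42.9%), beyond adult VM for 32 and on the far side of adult TN for 32. Over all 288 tested it lay between for 78 (27.1%), beyond adult VM for 101 and on the far side of adult TN for 109. Among the 112 it was thus displaced toward adult VM for 80 (71.4%), with a median position of 0.57. Over all 288 tested, which include the 112, it was so for 179 (62.2%), with a median of 0.46. With a library left out the share of placed miRNAs toward adult VM was lower in every fit. Without adult TN replicate 2 it was under the share over all tested given here. It lay within 0.25 of the adult TN level for 21 of the 112 and within 0.25 of the adult VM level for 18. Over all 288 tested these counts were 34 and 31. The share displaced toward VM was 71.6% of the 67 miRNAs higher in adult VM and 71.1% of the 45 lower in adult VM. Without adult TN replicate 2 the placed miRNAs numbered 23, of which 8 lay between, and without adult TN replicate 1 they numbered 51, of which 20 did.

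The age comparison within TN cells had 138 of 288 past the test (47.9%), 76 higher (26.4%) and 62 lower (21.5%) in the neonatal library. With library totals 106 were higher and 38 lower, and with upper quartile scaling 56 and 79. The total was 83 without adult TN replicate 2 and 86 without adult TN replicate 1. Of the 112 placed miRNAs 63 passed it, 45 displaced toward adult VM and 18 away. Over all 288 tested, which include the 112, the 138 past it were displaced toward adult VM for 86 and away for 52. The neonatal VM libraries, set on the same scale, had a median position of 0.75, with 41 of the 112 between the adult means, 45 beyond adult VM and 26 on the far side of adult TN. Over all 288 tested their median position was 0.70, with 63 between, 128 beyond adult VM and 97 on the far side of adult TN.

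The miRNAs with the largest adult differences did not share one position. Among the 6 largest increases in adult VM, miR-182-5p lay at 0.91, miR-340-5p at 0.67, miR-21a-3p at 0.41 and miR-30a-5p at 0.40, whereas miR-21a-5p lay at 0.14 and miR-146a-5p at 0.03. Among the 6 largest decreases, miR-99b-5p lay at 0.20 and miR-211-5p at -0.05, and the miR-181 members lay on the far side of adult TN, at -0.21 for miR-181a-1-3p, -0.40 for miR-181a-5p, -0.69 for miR-181a-2-3p and -0.80 for miR-181b-5p. MiR-181a-2-3p stood at 292.5 and 410 CPM in adult TN libraries, 30.6 and 29.7 in adult VM, 1813 in neonatal TN, and 132 and 113 in neonatal VM. Its neonatal TN library was therefore over 4-fold above either adult TN library. The difference between neonatal and adult TN passed for miR-181a-5p (0.95, SE 0.23, edgeR adjusted p = 0.00551), miR-181b-5p (1.80, SE 0.25, edgeR adjusted p = 1.20e-04) and miR-181a-2-3p (2.37, SE 0.25, edgeR adjusted p = 1.95e-05) and not for miR-181a-1-3p (0.50, SE 0.24, edgeR adjusted p = 0.107).

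**Figure D4:**
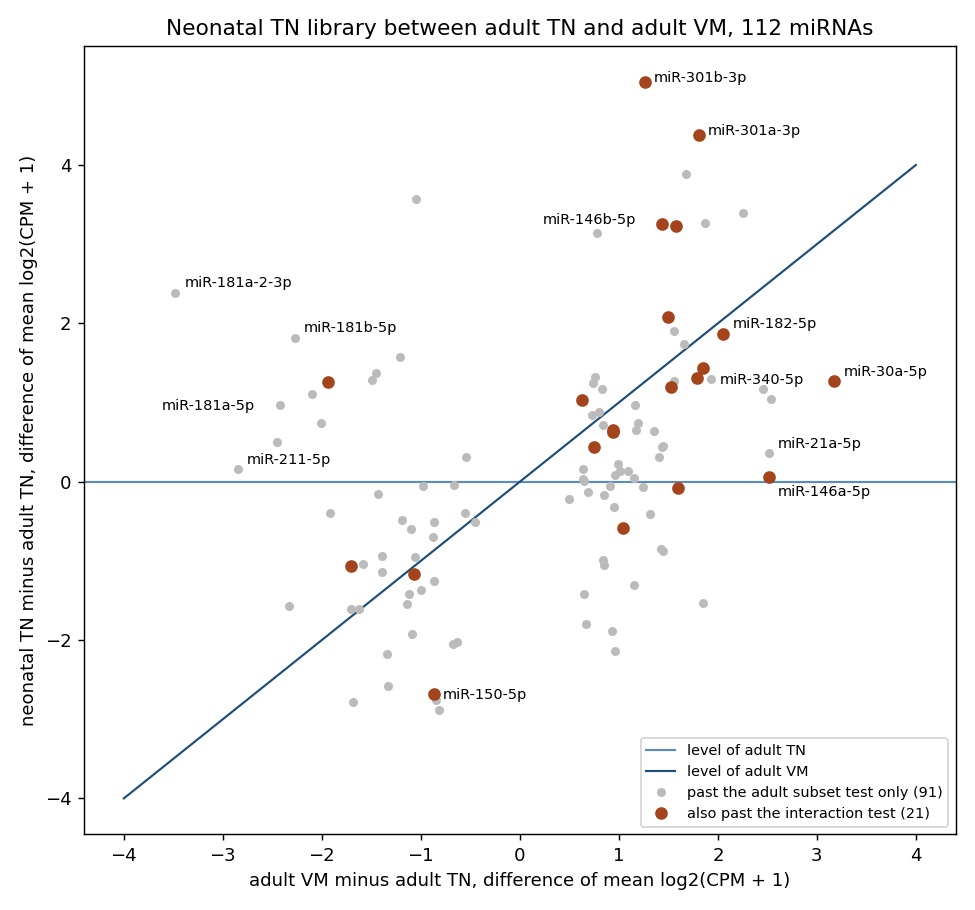
For the 112 miRNAs past the adult subset test, the difference of adult VM from adult TN (x axis) and of the neonatal TN library from adult TN (y axis), on log2(CPM + 1). Points on the horizontal line are at the adult TN level and points on the diagonal at the adult VM level; miR-182-5p lies near the diagonal, miR-146a-5p and miR-211-5p near the horizontal line, and the miR-181 members on the far side of it from adult VM.

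Of the 23 miRNAs past the interaction test, 21 were among the 112. For 10 of these 21 the neonatal TN library lay between the adult means, for 8 beyond adult VM and for 3 on the far side of adult TN. The interaction and the position both use the neonatal TN and adult TN libraries, so the 2 are not independent. MiR-301b-3p (4.01), miR-150-5p (3.08), miR-301a-3p (2.42) and miR-146b-5p (2.26) lay farthest beyond adult VM, and let-7g-5p (-0.56) and miR-877-5p (-0.65) lay farthest on the other side.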

How the data were processed

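Small RNA of sorted cells was sequenced with the Illumina TruSeq kit, per the labels' protocols. The table holds the authors' estimated counts per mature miRNA and precursor (2128 lines, 1978 mature names, 1234 precursors). Per the submitters' processing notes the build was mm10; aligner and counter are not given in the sources used here. Lines were summed per mature name and rounded, and 84.0% of values above 0 were within 0.02 of a whole number.

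A miRNA was tested if 2 or more libraries reached 10 CPM, which left 288. The test used edgeR 4.0.16 (R 4.3.3) with TMM factors, robust dispersions, the quasi-likelihood test and a model of 4 group means with 3 residual degrees of freedom. P-values were adjusted over all 288 by Benjamini-Hochberg. At 10 CPM a library held 15.8 to 32.8 counts. The labels' replicate numbers were not treated as pairs. The method was also run on simulated counts in which all groups shared the same spread. That run cannot show whether the neonatal TN library varies like the others.

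Named miRNAs were those past the interaction test and averaging 50 CPM or more, up to 15 per direction, and the 6 largest adult increases and 6 largest decreases. The other 6 past the test, let-7g-5p among them, were named after their values were seen. The members and lists were chosen with earlier results of these data known. Coordinates came from GENCODE M21 on GRCm38. Alternatives used RLE, library total or upper quartile scaling, other filters, DESeq2 1.42.0, limma voom (limma 3.58.1), non-robust dispersions, a replicate block, the largest precursor value, other pseudocounts and each library left out. Figures were drawn with matplotlib 3.10.9.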

Additional observations from a re-analysis of the deposited data

Results flagged for a closer look

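For each of the following miRNAs the difference between VM and TN cells was not the same at the 2 ages by the interaction term of the edgeR model (adjusted p at most 0.05). The values are log2 interactions, the VM minus TN difference in neonatal cells minus that in adult cells, and say nothing of the level at either age. A lower VM minus TN difference in neonatal than in adult cells was found for miR-151-3p (-3.25), miR-7a-5p (-3.18), miR-30a-5p (-3.16), miR-146b-5p (-2.65), miR-30a-3p (-2.56), miR-143-3p (-2.46), miR-486a-5p (-2.37), miR-486b-5p (-2.36), miR-151-5p (-2.24), miR-182-5p (-2.24) and miR-183-5p (-1.99). Smaller negative interactions were found for miR-301a-3p (-1.72), miR-146a-5p (-1.66), miR-98-5p (-1.66), miR-301b-3p (-1.49), miR-203-3p (-1.31), miR-192-5p (-1.16) and let-7g-5p (-1.03). A higher VM minus TN difference in neonatal than in adult cells was found for miR-877-5p (2.78), miR-497a-5p (2.72), miR-150-5p (1.08), let-7e-5p (1.77) and miR-125a-5p (1.50). The neonatal side of each value rests on 1 TN library.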

How the results depend on the processing

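Of the 23 interaction calls, 14 held under all scalings, filters, tools and the replicate block that could test them, none changed sign, and 83 of 364 single fits, leaving out a library included, did not pass. The adult subset calls of the named miRNAs were lost in 1 fit (miR-340-5p without adult TN replicate 2) and kept in 202, and 54 of 227 positions moved by more than the replicate spread. The interaction count was 43 with no filter, 29 with DESeq2, and 25 with the replicate block, which otherwise gave 116 for the adult subset, 25 for the neonatal subset and 129 for age in TN cells; miR-125a-5p (adjusted p = 0.0582) and let-7e-5p (0.0603) were not past edgeR's interaction test with it. Same-numbered libraries had correlations of deviations of 0.01, -0.17 and 0.13. Each group gives only 1 difference between replicates, so these values cannot show whether same-numbered libraries were paired. Leaving out 1 library gave 6 to 86 for the interaction, 23 to 142 for the adult subset, 16 to 77 for the neonatal subset, 83 to 179 for age in TN cells, 60.9% to 69.6% of positions toward adult VM and 31.2% to 43.7% between the adult means. The neonatal subset count was 52 with upper quartile scaling and 53 with no filter, and the count for age in TN cells was 69 with a 100 CPM filter. The causes were not tested. RLE scaling moved the median interaction by 0.15, and with the adult TN replicates used 1 for each distance, 42.9% or 37.5% of positions lay between the adult means. Without the neonatal TN library the interaction, neonatal subset, age in TN cells and positions could not be computed, and the adult subset count was 111.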
